A study of Mus musculus with 2 samples.

Results

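The mature migratory dendritic cells of MC38-OVA tumours were described in 123 cell barcodes out of 18460. Each cell was chosen by its raw UMIs (unique molecular identifiers, 1 per captured RNA molecule). The sum over Ccr7, Fscn1, Cacnb3, Il4i1, Il12b and Ccl22 had to reach 5 UMIs, with at least 1 of Ccr7. The T cell genes Cd3d, Cd3e and Trac had to be at 0, and the macrophage genes C1qa, C1qb, C1qc, Lyz2 and Apoe could sum to at most 5. The Sitagliptin library held 66 of the cells among 9766 barcodes, and the Control library held 57 among 8694. Both libraries came from wild-type (labelled WT) mice bearing tumours of MC38-OVA, mouse colon carcinoma cells with ovalbumin added as a tracked antigen. The mice were on a sitagliptin diet or a control diet. Sitagliptin inhibits DPP4 (CD26), a peptidase that trims the first amino acids off chemokines and other peptides. Tumour suspensions were enriched for CD45+ cells with magnetic beads before 5′ droplet sequencing. Each diet had 1 library. The labels give no number, age or sex of the mice behind it.

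Dendritic cells take up antigen in tissue, then mature. A maturing cell gives up antigen uptake, raises costimulatory molecules and CCR7, and follows the chemokines CCL19 and CCL21 through lymphatics to the draining lymph node, where it primes T cells. In tumours, cells in this state carry activating genes (Il12b, Cd40) together with restraining ones (Cd274, Cd200, Il4i1), and they make CCL17 and CCL22, the ligands of CCR4 on regulatory and other T cells. The NF-kB member RelB is needed for dendritic cell maturation in mice.

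The 6 genes of the rule chose the cells, so their levels are a description. A sum of at least 5 UMIs left 216 Sitagliptin and 216 Control barcodes. The need for Ccr7 left 124 and 125, the absence of T cell UMIs left 80 and 85, and the limit on macrophage genes took out another 14 in the Sitagliptin library and 28 in the Control library. At the edge, 3 Sitagliptin and 2 Control cells had a sum of exactly 5, while 4 and 1 barcodes with a sum of 4 met every other condition. Macrophage sums of 4 to 5 were inside for 1 and 2 cells, and sums of 6 to 7 kept 3 and 2 barcodes outside. The summed UMIs of the 6 genes had a median of 22 in Sitagliptin cells and 18 in Control cells, and the highest were 120 and 83. All 6 genes were seen together in 12 Sitagliptin and 5 Control cells. Only 2 of them were seen in 12 Sitagliptin and 4 Control cells, and only 1 in 2 further Control cells.

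The cells had medians of 4730 UMIs and 1751 genes in the Sitagliptin library and 3348 UMIs and 1374 genes in the Control library, against 5158.5 and 5074 UMIs over all barcodes of those libraries. Of all 76788699 and 64139749 UMIs, 351710 and 256276 lay in the mature dendritic cells. The libraries shared 132 barcode sequences, of which 1 was a Sitagliptin cell and 2 were Control cells. A UMI of Ptprc, the gene for CD45, was seen in 50 of 66 Sitagliptin cells and 40 of 57 Control cells.

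There were 3 barcodes that met the rule but stood apart, 1 in the Sitagliptin library with 29793 UMIs and 2 in the Control library with 29917 and 25672. The next highest cells had 12140 UMIs in the Sitagliptin library and 7601 in the Control library. Each of the 3 had 1 UMI of Ccr7 and 3 to 6 of Fscn1, an actin-bundling gene. They had at most 1 UMI of Ptprc and at most 6 of Cd74, the MHC class II invariant chain, whose median was 36 UMIs in the other cells of each library. Genes of other cells were plain in them. The Sitagliptin barcode had 21 UMIs of Cald1 and 123 of Lgals1, and the Control barcodes had 28 and 28 of Cald1 and 95 and 41 of Lgals1. One Control barcode had 121 UMIs of Il1rl1 and 306 of H1f0. The 3 barcodes held 8.47% of the UMIs of the Sitagliptin cells and 21.7% of those of the Control cells. An alternative used below, a macrophage sum of at most 2, treated them unevenly. It left out both Control barcodes, with sums of 4 and 5, and kept the Sitagliptin barcode, with a sum of 2. Ratios at that limit therefore also carry this change. Levels below are in CPM, the UMIs of a gene scaled to a common total of all UMIs of the cells of a library, and each ratio is Sitagliptin over Control. Removing the 3 barcodes hardly moved the UMIs of dendritic cell genes but shrank both totals, the Control total more, so both ratios are given: over all 123 cells and over the 120 cells without these barcodes.

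**Figure D1:**
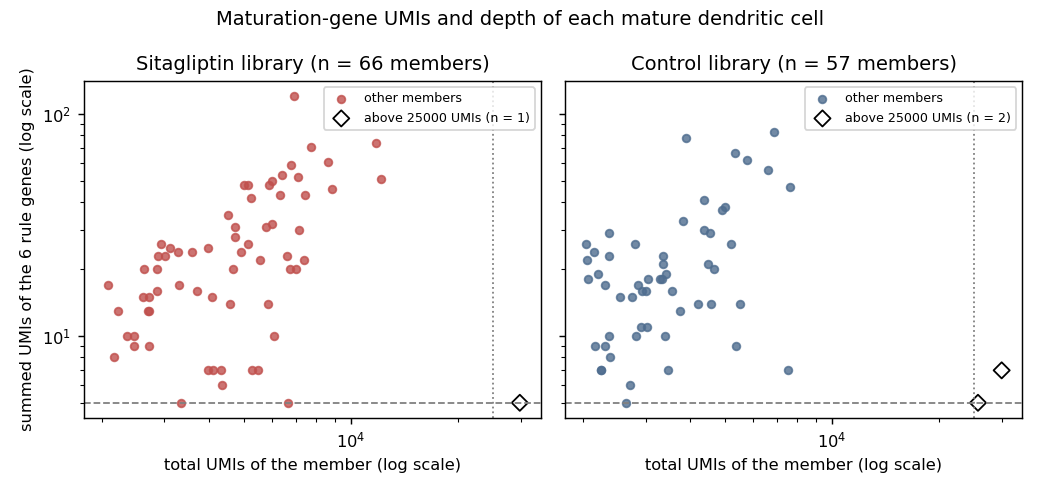
Each point is 1 mature dendritic cell, with its total UMIs on the horizontal axis and its summed UMIs of the 6 rule genes on the vertical axis (both log scales), Sitagliptin library left and Control library right. Diamonds right of the dotted line at 25000 UMIs are the 3 barcodes that stood apart, with sums of 5, 7 and 5; the dashed line marks the lowest sum allowed.

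Markers of T, NK and B cells, neutrophils and mast cells were otherwise scarce, while those of some other types were seen in many cells. Over the 120 cells, the 10 T cell markers, 3 of them fixed at 0 by the rule, summed to 5 UMIs in the Sitagliptin library and 5 in the Control library. The 6 neutrophil markers summed to 1 UMI in Sitagliptin cells and the 7 B and plasma cell markers to 11, 9 of them in 1 cell. In Control cells the B and plasma cell markers had 1 UMI, and all 14 NK cell UMIs lay in 1 cell. The 12 macrophage markers, 5 of them limited by the rule, had 81 and 50 UMIs, at most 10 and 16 per cell. A single Sitagliptin cell had 63 of the 169 UMIs of the 8 plasmacytoid dendritic cell markers in its library, and no Control cell had more than 6 of them. Among cDC1 markers 3 of 10 were at 0 in Sitagliptin cells and 5 of 10 in Control cells, with 66 and 29 UMIs in all. The 11 cDC2 markers had 152 and 82 UMIs, at most 11 and 10 per cell, the 6 monocyte markers 53 and 30, and the mast cell and basophil markers none. At least 2 cDC2 marker UMIs were seen in 32 Sitagliptin and 22 Control cells, and at least 2 plasmacytoid marker UMIs in 31 and 23. The 8 tumour and stroma markers had 420 UMIs in Sitagliptin cells and 237 in Control cells, with medians of 5 and 4 per cell and at most 41 and 15. At least 2 of these UMIs were seen in 49 Sitagliptin and 37 Control cells. That list includes Cd63 and Lgals1, and 4 and 5 of its 8 genes were at 0. The part of other cells in the results below was not tested.

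General dendritic cell genes and maturation genes outside the rule were present in the cells. The 11 general genes summed to a median of 156 UMIs per Sitagliptin cell and 109 per Control cell over the 120 cells, and the 20 maturation genes that the rule did not use to 47 and 33. No cell was without them: the lowest sums were 8 and 29 for the general genes, and 7 and 10 for the maturation genes. The high-UMI barcodes were not without them either, since over all cells the lowest general sums were 7 and 11. A sum above 0 thus does not sort out such barcodes. Cd74 and Cst3 gave 4354 and 4524 of the 12350 Sitagliptin UMIs of the general genes, and 2724 and 3060 of the 7956 Control UMIs. Flt3, the growth factor receptor of dendritic cells, had 122 and 88 UMIs. Zbtb46, a transcription factor of conventional dendritic cells, was seen in 34 of 65 and 28 of 55 cells.

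The cells were next set beside barcodes of the same libraries with markers of conventional dendritic cells that did not meet the rule. No further limit was set on the maturation genes of the dendritic sets. cDC2-like barcodes had at least 3 UMIs of Cd209a and Clec10a (34 Sitagliptin, 17 Control), and cDC1-like barcodes had at least 2 of Xcr1 and Clec9a (14 and 7). C1q macrophages had at least 10 UMIs of the C1q genes (2869 and 2301). A gene could be compared with at least 50 UMIs over both libraries in the mature cells or in the comparison set. It also needed, in each library, more than 3 counts on each side, seen or expected from the other side. The mature cells held 351710 and 256276 UMIs and the cDC2-like barcodes 215547 and 96613, so genes could enter more easily through the mature cells. The part of this in the shares was not tested. Against cDC2-like barcodes, 2006 genes could be compared over all 123 cells. In both libraries 241 of them (12%) were at least 2-fold higher in the mature cells and 104 (5.18%) at least 2-fold lower. Without the high-UMI barcodes, which took out 1 Sitagliptin cDC2-like barcode as well, these were 253 (14.6%) and 121 (6.99%) of 1732. By any amount, 773 genes (38.5%) were higher in both libraries and 681 (33.9%) lower, and without the high-UMI barcodes 731 (42.2%) and 603 (34.8%); counts of list members below are to be read against these shares. Of the 20 maturation genes outside the rule, 19 could be compared and all 19 were higher in both libraries, 15 of them by 2-fold or more (14 without the high-UMI barcodes).

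Ccl5, a chemokine for T cells and NK cells, set the mature cells apart most clearly. It had 1204 UMIs in 66 Sitagliptin mature cells and 642 in 57 Control mature cells, with no UMI in the cDC2-like barcodes of either library. Against a floor of 3 counts set for those barcodes, its ratio was 246 in the Sitagliptin library and 80.7 in the Control library. Ratios to this floor are not lower limits. Ly75, the endocytic receptor DEC-205, followed. It had 745 CPM in mature cells against 9.28 in cDC2-like barcodes of the Sitagliptin library, and 683 against 20.7 CPM in the Control library, with 2 UMIs in each cDC2-like set. Socs2, a brake on cytokine receptor signalling, had 438 against 13.9 CPM in the Sitagliptin library and 460.4 against 20.7 CPM in the Control library. Serpinb9, an inhibitor of granzyme B, had 972 against 60.3 CPM in the Sitagliptin library and 268 UMIs against 0 in the Control library. Fabp5, a fatty acid binding protein, had 2516 against 209 CPM and 2408 against 93.2 CPM. The other highest genes were Zmynd15, Kdm4a, Tmcc3, Nostrin, Serpinb6b and Slc4a8, beside the rule genes Ccr7, Fscn1, Ccl22 and Il12b.

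Of 7 inhibitory and regulatory genes 5 were at least 2-fold higher in both libraries and 2 at least 2-fold lower, against 12% and 5.18% of all genes. Without the high-UMI barcodes 5 were higher and 2 lower by any amount. Of these, 4 and 1 passed 2-fold, against 14.6% and 6.99% of all genes. The lower ones were Tgfb1, with 119 against 251 CPM in the Sitagliptin library and 62.4 against 145 CPM in the Control library, and Havcr2, the gene for TIM-3, with 117 against 329 CPM and 85.8 against 362 CPM. Cd274, the gene for PD-L1, had 995 against 223 CPM in the Sitagliptin library and 1030.1 against 197 CPM in the Control library. Cd200, an inhibitory ligand, had 114 UMIs against 1 and 65 UMIs against 0. Relb had 387 against 69.6 CPM and 511 against 51.8 CPM. Of 19 NF-kB genes 16 were higher in both libraries and 1 was lower, against 38.5% and 33.9% of all genes. These counts were the same without the high-UMI barcodes. Cd40, the receptor through which helper T cells license dendritic cells, had 227 against 78.9 CPM and 133 against 20.7 CPM. Il15ra, which presents IL-15 to T and NK cells, had 42 and 33 UMIs in mature cells and none in cDC2-like barcodes. Of 18 MHC class I presentation genes 13 were higher and 2 lower, and 14 and 2 without the high-UMI barcodes.

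Several lists had more members lower than higher in the mature cells, against 33.9% of all genes lower in both libraries and 38.5% higher. Without the high-UMI barcodes these shares were 34.8% and 42.2%. Of 9 endoplasmic reticulum stress genes 5 were lower, 4 of them by 2-fold or more, and 1 was higher. Without the high-UMI barcodes the lower counts stayed and 2 were higher. Hspa5, the chaperone BiP, had 503 against 1322 CPM in the Sitagliptin library and 484 against 1149 CPM in the Control library. Of 16 glycolysis and hypoxia genes 10 were lower and 2 higher, none past 2-fold. Of 24 oxidative phosphorylation genes 12 were lower and 3 higher. Without the high-UMI barcodes 8 of 14 glycolysis and hypoxia genes were lower and 1 higher. For oxidative phosphorylation 12 of 23 were then lower and 3 higher. Of 9 uptake and pattern receptor genes 7 were lower in both libraries, among them Cd209a and Clec10a, which chose the cDC2-like barcodes, and 1, Ly75, was higher. Mrc1, the mannose receptor, had 25.6 against 218 CPM in the Sitagliptin library and 15.6 against 145 CPM in the Control library. Itgam, the integrin CD11b, had 17.1 against 158 CPM and 27.3 against 197 CPM. Of 12 MHC class II genes 7 were lower, 3 of them by 2-fold or more, and 2 higher. Without the high-UMI barcodes the lower counts stayed and 3 were higher. Cd74 had 12382 against 23304 CPM in the Sitagliptin library and 10664 against 18889.8 CPM in the Control library. H2-DMb1, a subunit of the peptide-loading chaperone, had 68.2 against 455 CPM and 42.9 against 476 CPM. Cst3, a cathepsin inhibitor, ran the other way, with 12871 against 4412 CPM and 11968 against 4151 CPM. Of 20 immediate early and dissociation genes 14 were lower and 2 higher, and 14 and 2 of 17 without the high-UMI barcodes. Among the lower ones was Egr1, with 19.9 against 167 CPM and 58.5 against 528 CPM. Cell handling can induce immediate early genes, and its part was not tested.

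**Figure D2:**
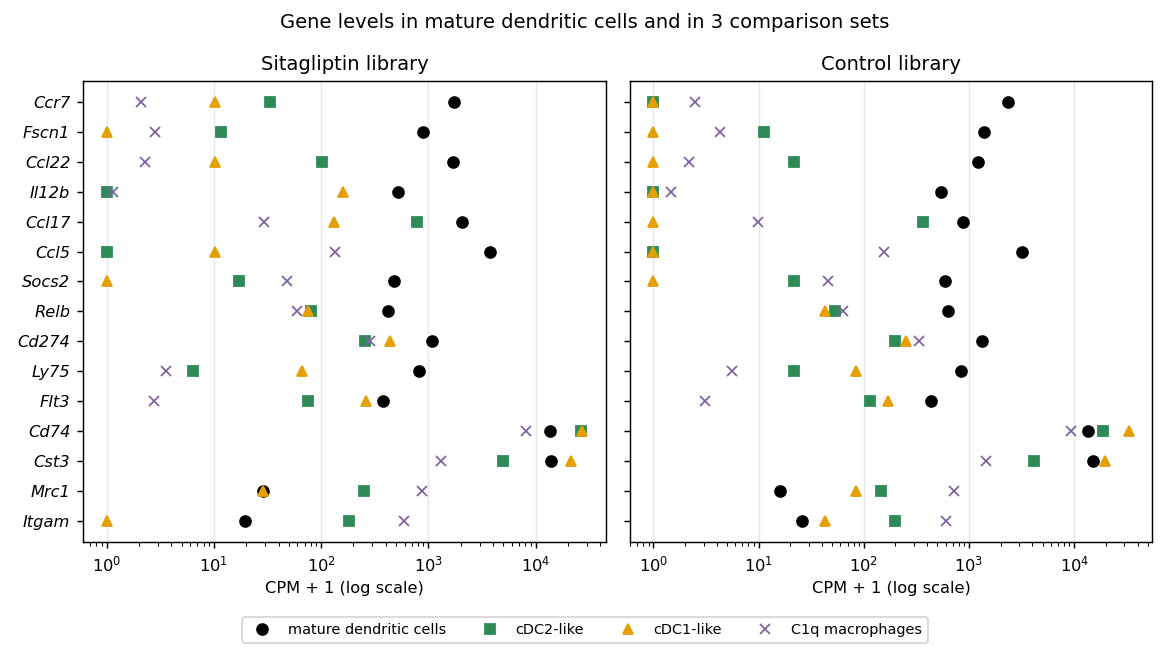
Level of 15 genes (CPM + 1, log scale) in mature dendritic cells (circles), cDC2-like barcodes (squares), cDC1-like barcodes (triangles) and C1q macrophages (crosses), without barcodes above 25000 UMIs among the dendritic sets, Sitagliptin library left and Control library right. Ccr7 to Ly75 lie highest in the mature cells of both libraries, while Mrc1 and Itgam lie highest in the macrophages. Ccr7, Fscn1, Ccl22 and Il12b helped choose the mature cells, and the macrophages had at most 1 UMI of the rule genes. The order of these genes between those sets was fixed in advance.

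The same genes were read against the other sets. Against cDC1-like barcodes 179 of 1481 genes (12.1%) were 2-fold higher in both libraries and 79 (5.33%) were 2-fold lower, and against C1q macrophages 799 of 7549 (10.6%) and 871 (11.5%). Without the high-UMI barcodes these were 207 (14.8%) and 79 (5.65%) of 1397 against cDC1-like barcodes, and 802 (11.5%) and 1167 (16.8%) of 6965 against macrophages. By any amount, 38.7% of genes were higher and 30.7% lower than in cDC1-like barcodes (43.7% and 31.6% without the high-UMI barcodes), and 34.3% higher and 42.3% lower than in macrophages (31.5% and 48.7%). Without the high-UMI barcodes all 16 NF-kB genes that could be compared with cDC1-like barcodes were higher in both libraries. Against macrophages 20 of 24 were higher and none was lower in both. Glycolysis and hypoxia genes were lower than in macrophages for 22 of 25 members and higher for 2, against 48.7% and 31.5% of all genes. Beside cDC1-like barcodes they ran the other way. There 7 of 11 were higher in the mature cells and 3 lower, and over all cells 10 of 14 were higher and 2 lower. Without the high-UMI barcodes 3 of 5 uptake and pattern receptor genes were higher than in cDC1-like barcodes and 1 was lower. Over all cells these were 2 and 1. Of 14 immediate early and dissociation genes 5 were higher than in cDC1-like barcodes and 6 lower, and over all cells 6 and 6 of 16. Both cDC1 markers that could be compared with cDC2-like barcodes, Ifi205 and Naaa, were lower in the mature cells of both libraries. Against cDC1-like barcodes all 4 were lower, one of them Clec9a, which chose those barcodes. Irf8, a transcription factor of cDC1 cells, had 535 and 519 CPM in the mature cells of the Sitagliptin and Control libraries, against 125 and 82.8 CPM in their cDC2-like barcodes.

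Ccl22 and Ccl17 encode the ligands of CCR4 and lie in 1 chemokine cluster, with Cx3cl1 between them. Their start regions are shown because the chemokines of this pair differ in the results below, and that of Tbc1d4 because it holds the motif searched. Sequences are 300 bases from RefSeq, 250 before and 50 after the gene start, on GRCm38.p6 and in the direction of the gene. Ccl22 is at chr8:94745434-94745733 and Ccl17 at chr8:94810203-94810502, both on the plus strand, and Tbc1d4 at chr14:101609142-101609441 on the minus strand. Capitals mark the NF-kB motif, GGG followed by any 3 bases and TTCC, searched on both strands.
Ccl22: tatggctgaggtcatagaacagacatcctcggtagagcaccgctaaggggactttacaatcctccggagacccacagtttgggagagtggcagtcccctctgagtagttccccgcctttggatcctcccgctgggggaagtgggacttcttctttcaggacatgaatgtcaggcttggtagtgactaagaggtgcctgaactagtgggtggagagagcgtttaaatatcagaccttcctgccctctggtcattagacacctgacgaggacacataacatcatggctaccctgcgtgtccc
Ccl17: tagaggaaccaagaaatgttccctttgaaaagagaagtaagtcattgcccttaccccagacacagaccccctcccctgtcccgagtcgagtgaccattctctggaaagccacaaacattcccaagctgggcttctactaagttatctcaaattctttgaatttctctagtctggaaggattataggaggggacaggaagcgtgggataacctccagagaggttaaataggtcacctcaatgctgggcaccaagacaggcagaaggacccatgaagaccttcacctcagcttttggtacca
Tbc1d4: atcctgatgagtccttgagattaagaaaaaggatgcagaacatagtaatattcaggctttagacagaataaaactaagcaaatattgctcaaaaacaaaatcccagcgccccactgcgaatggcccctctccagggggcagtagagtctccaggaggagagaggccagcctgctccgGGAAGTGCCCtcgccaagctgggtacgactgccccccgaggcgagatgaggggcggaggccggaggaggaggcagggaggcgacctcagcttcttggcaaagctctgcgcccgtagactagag

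The motif was in the window of 1 of the 13 maturation genes outside the rule that matched, Tbc1d4, where it starts 73 bases before the gene start on the reverse strand. It was in none of the windows of the 5 rule genes that matched (Fscn1, Cacnb3, Il4i1, Il12b and Ccl22). Over all 32851 windows 5.56% held it. Only these letters in this window were searched. Tbc1d4, a GTPase-activating protein of vesicle traffic, had 1208 CPM in Sitagliptin and 964 CPM in Control mature cells, against 181 and 10.4 CPM in cDC2-like barcodes.

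The cells varied widely among themselves. Over the 120 cells, Ccl22 ranged from 0 to 77.7 UMIs per 10000 UMIs of the cell in the Sitagliptin library with a median of 10.5, and from 0 to 79.1 with a median of 8.68 in the Control library. Ccl17 ranged from 0 to 203 with a median of 3.45 in Sitagliptin cells and from 0 to 73.6 with a median of 3.02 in Control cells. The highest Ccl17 value lay in a Sitagliptin cell, as did those of Cxcl9, Cxcl10 and Ccl4, and the medians of Ccl17 lay close. The top 3 Sitagliptin cells gave 37.4% of the Ccl17 UMIs in that library, and the top 3 Control cells 37.3% in theirs. Il12b, the p40 subunit of IL-12 and IL-23, was at 0 in most cells: 25 of 66 Sitagliptin and 16 of 57 Control cells had a UMI, and the top 3 cells gave 50.6% and 58.7% of its UMIs. Cd74 ranged from 0 to 490 per 10000 in Sitagliptin cells and from 2.67 to 616 in Control cells, with medians of 67.8 and 114.

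Ccl22 is a rule gene and was seen in most cells, 56 of 66 in the Sitagliptin library and 49 of 57 in the Control library. Among cells with a Ccl17 UMI it was seen in 39 of 39 and in 30 of 35. In the Sitagliptin library 39 cells had both, 17 had Ccl22 only, none had Ccl17 only and 10 had neither. In the Control library these were 30, 19, 5 and 3. Il12b and Cd40 were seen together in 18 Sitagliptin and 7 Control cells, with Il12b only in 7 and 9 and Cd40 only in 18 and 11. These counts move with depth, and the Sitagliptin cells were deeper.

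**Figure D3:**
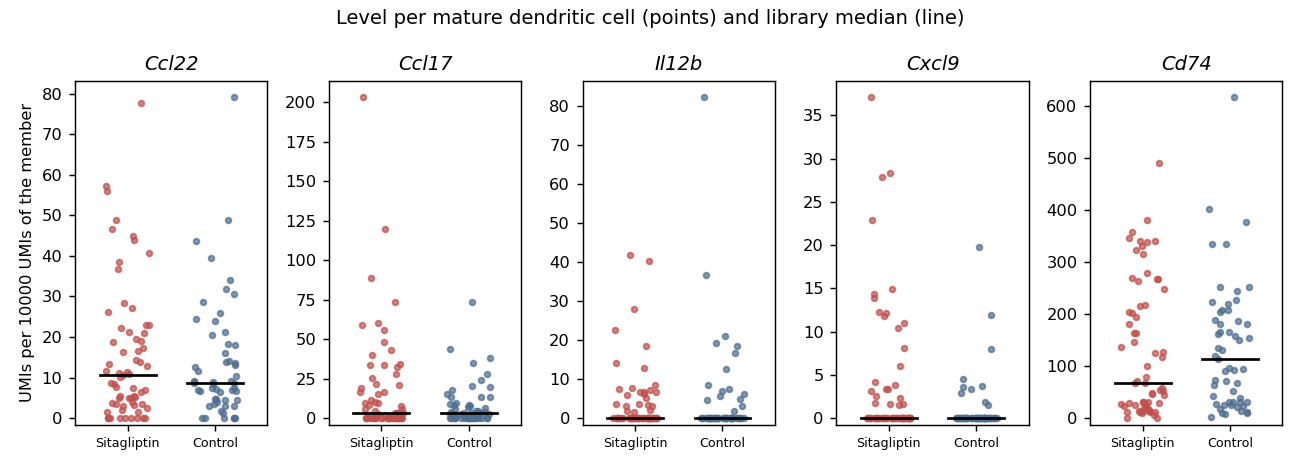
UMIs per 10000 UMIs of the cell for 5 genes in the 65 Sitagliptin (left in each panel) and 55 Control cells without the 3 barcodes above 25000 UMIs; points are cells and the line is the median. The ranges of the libraries overlap for every gene, and Ccl17 and Cxcl9 reach higher in single Sitagliptin cells (203 against 73.6 for Ccl17).

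Genes that followed the 6 rule genes across cells were read after thinning each cell to 2000 UMIs. Among genes seen in at least 20% of cells the Spearman correlations with the summed rule genes were low to moderate, over 123 cells that share 2 libraries and a fixed depth. The highest was for Crip1, a LIM-domain protein (rho = 0.45), then the leukocyte actin-binding Lsp1 (0.44), Actb (0.44), Tmem39a (0.43), the tetraspanin Cd63 (0.41), Glipr2 (0.40), Serpinb9 (0.38), the integrin chain Itga4 (0.37) and Tmcc3 (0.36). Without the high-UMI barcodes Rap2b (0.35) was also among the highest. Il1r2, the decoy receptor for IL-1, ran against the sum, with a rho of −0.37, and −0.41 without those barcodes.

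The share of barcodes that were mature dendritic cells was 0.676% (95% interval 0.523 to 0.859) in the Sitagliptin library and 0.656% (0.497 to 0.849) in the Control library. Their ratio was 1.03 (0.724 to 1.47), so no difference was detectable at this depth. Among mature, cDC1-like and cDC2-like barcodes together, they were 57.9% (48.3 to 67.1) in the Sitagliptin library and 70.4% (59.2 to 80.0) in the Control library, a ratio of 0.823 (0.666 to 1.02). Intervals here and below cover counting error only. With 1 library per diet there is no replicate error and no test.

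Between diets, 1947 genes had at least 50 UMIs over both libraries. Of them 137 (7.04%) were at least 1.5-fold higher in Sitagliptin cells and 180 (9.24%) at least 1.5-fold lower, 317 (16.3%) in all. By any amount 45.9% were higher and 54.1% lower. Without the 3 high-UMI barcodes 103 of 1641 (6.28%) were higher and 110 (6.70%) lower, 213 (13%) in all, and by any amount 43.4% were higher and 56.6% lower. Counts of list members between diets are to be read against these shares. The 12 lowest ratios over all cells were Il1rl1, Spp1, Hsph1, Hist1h1b, H1f0, Hist1h1e, Tm4sf1, Hspa9, Top2a, Cald1, Paics and Hspe1. Of the 122 Control UMIs of Il1rl1, 121 were in 1 high-UMI barcode, and so were 306 of the 430 of H1f0. Tm4sf1 and Cald1 had 1 UMI each in the Control library and 1 and 2 in the Sitagliptin library once those barcodes were left out. The cell cycle list shows the same: over all cells 15 of 20 genes were lower (11 past 1.5-fold, median log2 ratio −0.77), and without the high-UMI barcodes 8 genes were left to measure, with 5 lower and a median of −0.28.

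Among the 20 lists with at least 5 measured genes, chemokine ligands had the highest median ratio in both sets of cells. With only genes of at least 100 UMIs the median was 0.45 over 7 genes, below that of the DPP4 family list (0.57 over 6 genes). Of 10 measured ligands 8 were higher, 6 of them past 1.5-fold, with a median log2 ratio of 0.76, against −0.04 over all genes. Without the high-UMI barcodes 7 of 9 were higher, 5 past 1.5-fold, with a median of 1.24 against −0.06 over all genes. Several of these rest on few cells, as the values below show.

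Ccl17 had 669 UMIs (1902 CPM) in Sitagliptin cells and 177 UMIs (691 CPM) in Control cells, a ratio of 2.75 (95% counting interval 2.33 to 3.27), and 2.36 (1.99 to 2.80) over the 120 cells. The number of cells with a Ccl17 UMI did not differ in the same way: 39 and 35, or 50.9% and 49.7% with every cell thinned to 2000 UMIs. The highest counts per cell were 96 in a Sitagliptin cell and 28 in a Control cell. C1q macrophages had a thinned share of 1.77% in the Sitagliptin and 0.972% in the Control library, at median depths of 8868 and 7442 UMIs. In those macrophages Ccl17 had a ratio of 3.21 (2.71 to 3.82), and in cDC2-like barcodes 1.87 (1.29 to 2.79).

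Ccl22 had 544 UMIs (1547 CPM) in Sitagliptin cells and 246 (959.9 CPM) in Control cells, a ratio of 1.61 (1.38 to 1.88), and 1.38 (1.18 to 1.61) over the 120 cells. It is a gene of the rule. With each cell weighted equally its ratio was 1.17, and its thinned share of cells was 73.4% in Sitagliptin and 76.2% in Control cells, so no order was read for it. Ccl5 had 3423 CPM in Sitagliptin and 2505 CPM in Control cells (1.37, 1.24 to 1.51), and 1.17 (1.06 to 1.29) over the 120 cells. Its thinned share was 65.9% and 73.7%, again on the other side.

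Cxcl9, an interferon-induced attractant for CXCR3+ T cells, had 130 UMIs (369.6 CPM) in Sitagliptin cells and 23 UMIs (89.7 CPM) in Control cells, a ratio of 4.12 (2.63 to 6.73). It was 4.05 (2.52 to 6.85) over the 120 cells and 2.16 with the rule on thinned UMIs. A UMI was seen in 25 Sitagliptin and 11 Control cells, 28.2% and 12.9% after thinning, so share and level moved the same way. The top 3 Sitagliptin cells, with 17, 16 and 16 UMIs, held 49 of the 130. They had no UMI of Fscn1 and 151, 195 and 147 UMIs of Cd74. The next Sitagliptin cell, with 11 UMIs of Cxcl9, and the highest Control cell, with 6, each had 2 UMIs of Fscn1. Whether Cxcl9 differs between cells with and without Fscn1 was not tested. Cxcl9 was also higher in Sitagliptin cDC2-like barcodes (65 UMIs against 4) and in Sitagliptin C1q macrophages (1.34, 1.30 to 1.37), where its level was 614 CPM against 459 CPM in Control macrophages. Cxcl10, of the same receptor, had 81 and 16 UMIs, a ratio of 3.69 (2.14 to 6.76), and 60 of the 79 Sitagliptin UMIs over the 120 cells lay in 3 cells. Its ratio was 2.07 at a sum of at least 3 and 2.10 with the rule on thinned UMIs. Ccl4, a chemokine of activated myeloid cells, had 49 UMIs in 6 Sitagliptin cells, 31 of them in 1 cell, and 4 UMIs in 3 Control cells. Its ratio of 8.93 became 2.32 with a macrophage sum of at most 2 and 27.8 at a sum of at least 8. Cxcl16 (1.08, 0.856 to 1.37) and Cxcl2 (0.999, 0.788 to 1.27) had ratios with intervals that included 1.

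**Figure D4:**
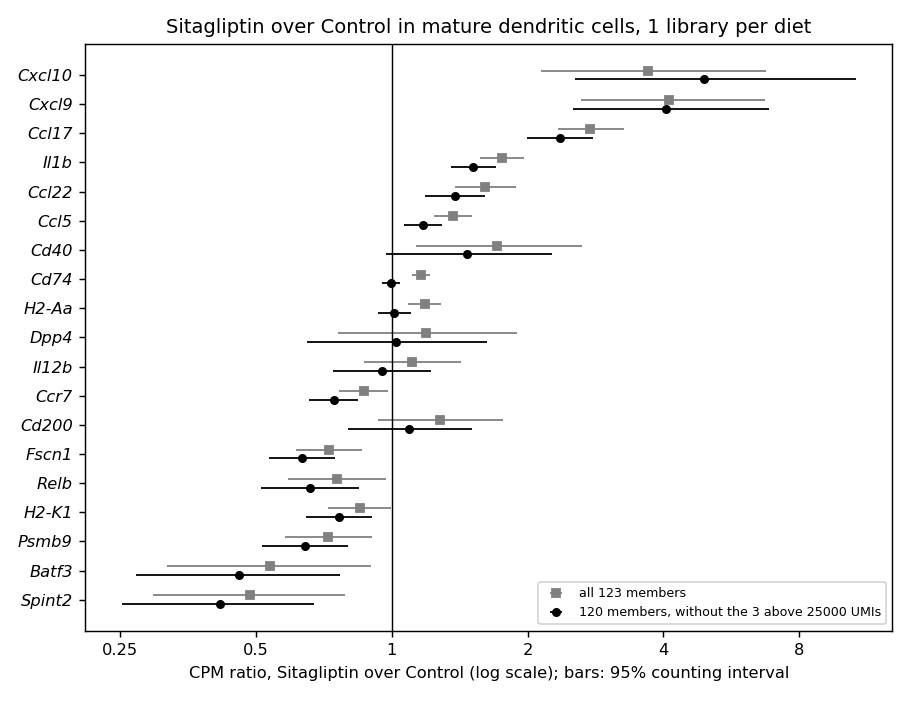
CPM ratio, Sitagliptin over Control (log scale), with 95% counting intervals for 19 genes in mature dendritic cells: squares are all 123 cells, circles the 120 cells without the barcodes above 25000 UMIs. Cxcl10, Cxcl9 and Ccl17 lie right of 1 and Fscn1, Psmb9, Batf3 and Spint2 left of 1 in both sets, while Cd74 moves onto 1 without the 3 barcodes.

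Among cytokines, Il1b, the gene for IL-1 beta, had 2948 CPM in Sitagliptin cells and 1682 CPM in Control cells, a ratio of 1.75 (1.57 to 1.97), and 1.52 (1.35 to 1.70) over the 120 cells. Its thinned share was 67.5% and 68.8%, near that of C1q macrophages (68.5% and 70.0%). Il1rn, its receptor antagonist, had 138 and 44 UMIs (2.29, 1.62 to 3.29), of which 26 lay in 1 Sitagliptin cell. With a macrophage sum of at most 2 its ratio was 0.933, and with the rule on thinned UMIs 0.874, so its direction turned. Il12b had 472 CPM in Sitagliptin and 425 CPM in Control cells, a ratio of 1.11 (0.866 to 1.43), and 0.949 (0.741 to 1.22) over the 120 cells. No difference in Il12b was detectable at this depth.

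Of 7 measured costimulatory genes 6 were higher over all cells (median log2 ratio 0.24), with Cd40 and Icam1 past 1.5-fold, and 4 over the 120 cells (median 0.04), with none past 1.5-fold. Of all genes 45.9% and 43.4% were higher in these sets, 7.04% and 6.28% past 1.5-fold. Icam1, an adhesion molecule, had 33 UMIs in Sitagliptin and 16 in Control cells, with an interval of the ratio of 0.804 to 2.92, and a ratio of 1.29 (0.688 to 2.50) over the 120 cells. Cd80 had ratios of 1.09 (0.865 to 1.37) and 0.930 (0.740 to 1.17) in the larger and smaller set, and Cd86 of 1.18 (0.947 to 1.48) and 1.03 (0.821 to 1.29). Cd40 had 80 UMIs in 36 Sitagliptin cells and 34 UMIs in 18 Control cells. Its ratio was 1.71 (1.13 to 2.64), and 1.47 (0.971 to 2.26) over the 120 cells, and its thinned share was 35.2% and 21.2%. In C1q macrophages the Cd40 share was 5.57% and 5.95%. Among inhibitory genes Cd274 had a ratio of 0.966 (0.821 to 1.14), and 0.827 (0.702 to 0.973) over the 120 cells. Cd200 had 1.28 (0.934 to 1.76) and Pdcd1lg2, the gene for PD-L2, had 51 and 37 UMIs with an interval of 0.645 to 1.58. Aldh1a2, which makes retinoic acid, had 28 UMIs in Sitagliptin cells, 22 of them in 1 cell, and 1 UMI in Control cells.

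Over all cells the rule genes Ccr7 and Fscn1 had ratios below 1, while those of Cacnb3 (1.14, 0.853 to 1.53) and Il4i1 (0.799, 0.587 to 1.09) had intervals that included 1. Ccr7 had 1589 CPM in Sitagliptin and 1834 CPM in Control cells, a ratio of 0.867 (0.765 to 0.982), and 0.743 (0.656 to 0.842) over the 120 cells. Fscn1 had 819 and 1128 CPM (0.726, 0.615 to 0.858), and 0.632 (0.534 to 0.748) over the 120 cells. Both are genes of the rule, which asks for a fixed number of UMIs in every cell. Control cells were shallower, with a median of 3348 UMIs against 4730 in Sitagliptin cells, and the part of depth in these ratios was not tested. Relb, which the rule did not use, had 387 CPM in Sitagliptin and 511 CPM in Control cells (0.757, 0.591 to 0.969), and 0.658 (0.512 to 0.845) over the 120 cells. Its thinned share was 52.8% and 67.9%. Of the 19 measured maturation genes outside the rule 13 were higher over all cells (median log2 ratio 0.12) and 7 over the 120 cells (median −0.08). Of 23 NF-kB genes 18 were higher over all cells (median 0.24), and 14 of 22 over the 120 cells (median 0.06). Both lists thus crossed or neared the median of all genes once the high-UMI barcodes were left out. Tnfaip2 and Nfkbiz led the NF-kB list over the 120 cells, with ratios of 2.06 (1.23 to 3.58) and 1.99 (1.10 to 3.84).

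MHC class I presentation genes were lower in Sitagliptin cells in both sets. Of 23 measured genes 16 were lower over all cells, 4 past 1.5-fold, with a median log2 ratio of −0.24, against 54.1% of all genes lower, 9.24% past 1.5-fold and a median of −0.04. Over the 120 cells 19 were lower, 5 past 1.5-fold, with a median of −0.37, against 56.6%, 6.70% and −0.06. Psmb9, a subunit of the immunoproteasome, had 478 CPM in Sitagliptin and 659 CPM in Control cells, a ratio of 0.724 (0.582 to 0.902), and 0.643 (0.515 to 0.802) over the 120 cells. Its thinned share was 61.5% and 75.1%. H2-D1 and H2-K1, the classical heavy chains, had ratios of 0.825 (0.734 to 0.928) and 0.849 (0.722 to 0.999), and 0.774 and 0.764 over the 120 cells. Tap2, a subunit of the peptide transporter, had 28 and 34 UMIs over the 120 cells (0.513, 0.300 to 0.872). Of the 7 genes that were higher over all cells, Psme1, a proteasome activator subunit, had the highest ratio, with 1171 and 792 CPM (1.48, 1.25 to 1.76). The same genes moved alike in C1q macrophages, where Psmb9 had a ratio of 0.778 (0.747 to 0.811), H2-D1 0.783 (0.771 to 0.795), H2-K1 0.827 (0.809 to 0.846) and Psme1 1.32 (1.28 to 1.36). Whether the mature cells differ from macrophages in this was not tested.

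For MHC class II genes the direction depended on the rule. Over all cells 13 of 14 were higher (median log2 ratio 0.37), with Cd74 at 12382 CPM in Sitagliptin and 10664 CPM in Control cells (1.16, 1.11 to 1.22). The median was −0.10 with a macrophage sum of at most 2 and −0.07 with the rule on thinned UMIs. The macrophage limit also left out both high-UMI Control barcodes and kept the Sitagliptin one, and the part of this was not tested. Over the 120 cells 10 of 14 were higher (median 0.20), and Cd74 had a ratio of 0.997 (0.95 to 1.05). H2-Aa (1.01, 0.931 to 1.10) and H2-Eb1 (0.980, 0.891 to 1.08) did likewise over the 120 cells.

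**Figure D5:**
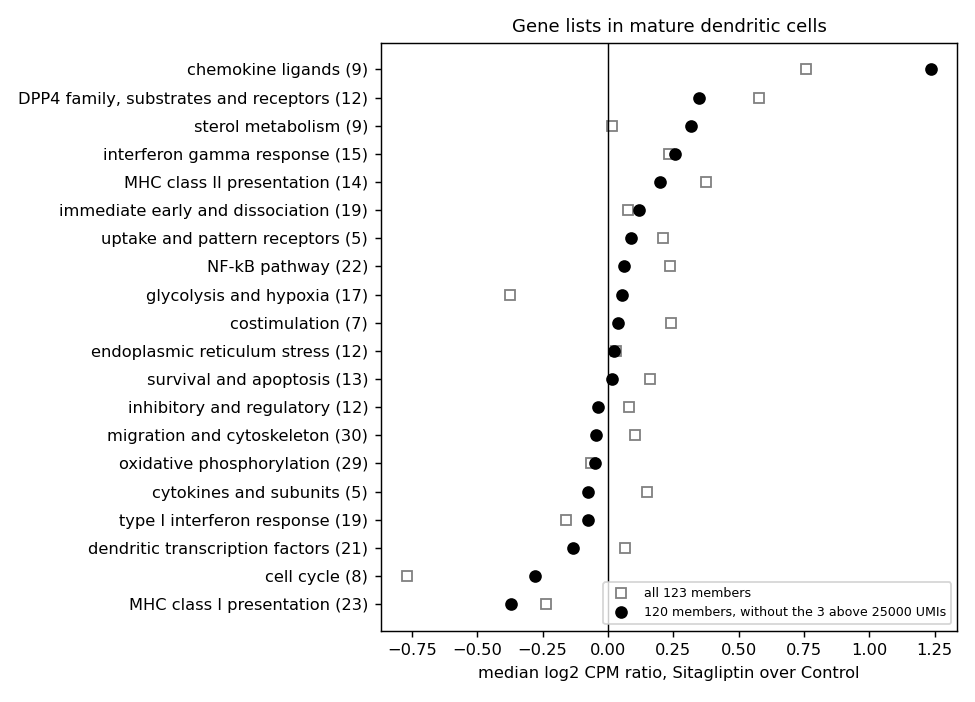
Median log2 CPM ratio, Sitagliptin over Control, of 20 gene lists in mature dendritic cells, with the number of genes measured over the 120 cells in brackets; open squares are all 123 cells and filled circles the 120 cells without the barcodes above 25000 UMIs. Chemokine ligands lie highest (0.76 and 1.24), MHC class I presentation lies below 0 in both sets (−0.24 and −0.37), and the glycolysis and cell cycle medians move up without the 3 barcodes.

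Interferon genes were divided. Of 21 type I interferon response genes 10 were higher over all cells (median log2 ratio −0.16), and 9 of 19 over the 120 cells (median −0.08). Oasl2, an antiviral gene, had 8 UMIs in Sitagliptin and 21 in Control cells (0.237, 0.0910 to 0.558) over the 120 cells. The interferon gamma list had 9 of 15 genes higher over all cells and 10 over the 120 cells, against 45.9% and 43.4% of all genes. The medians of this list were 0.23 and 0.26, and it was led by Cxcl9 and Cxcl10. Its members Gbp2 (1.22, 0.917 to 1.64) and Irf1 (1.19, 0.979 to 1.46) had intervals that included 1 over the 120 cells.

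Among transcription factors Batf3, needed for cDC1 development in mice, had 28 UMIs in 21 Sitagliptin cells and 38 UMIs in 24 Control cells. Its ratio was 0.537 (0.317 to 0.898), and 0.459 (0.272 to 0.768) over the 120 cells, with thinned shares of 13.5% and 29.7%. Its share in C1q macrophages was 2.21% and 2.51%. Irf8 (1.03, 0.821 to 1.30) and Flt3 (1.01, 0.762 to 1.34) had intervals that included 1. The list of 22 transcription factors had 13 members higher over all cells and 9 of 21 over the 120 cells, with medians of 0.07 and −0.13. Of all genes 45.9% and 43.4% were higher. Other low ratios over the 120 cells were those of Spint2, a serine protease inhibitor, with 30 and 45 UMIs (0.416, 0.253 to 0.674), and Cd1d1, which presents lipids to NKT cells, with 25 and 34 UMIs (0.458, 0.262 to 0.791). Hcfc1r1 (0.441), Tnpo1 (0.442), Rnf180 (0.451), Tmpo (0.453), Selenom (0.422), Rassf1 (0.489), Hnrnpll (0.494), Eif5 (0.510) and Hist1h1e (0.377) made up the rest of the 12 lowest. In Hist1h1e 30 of 76 Control UMIs lay in 1 cell, and in Selenom 15 of 31.

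High ratios outside the chemokines included Wfdc17, Slfn2, Calcrl, Rabgef1 and Dstn. Wfdc17, a secreted protein of myeloid cells, had 63 UMIs in Sitagliptin cells, 25 of them in 1 cell, and 8 in Control cells (5.74, 2.74 to 13.9), and 2.99 with a macrophage sum of at most 2. Slfn2, a regulator of immune cell quiescence in mice, had 55 UMIs in 26 Sitagliptin cells and 10 UMIs in 9 Control cells (4.01, 2.02 to 8.82), and 3.43 over the 120 cells. Its ratio was 1.93 with a macrophage sum of at most 2 and 1.43 with the rule on thinned UMIs. Its share in C1q macrophages, which hold it at 351 and 285 CPM, was 45.4% and 40.1% after thinning, against 22.6% and 9.56% in the mature cells. Rabgef1, a regulator of endosome traffic, had 67 and 19 UMIs (2.57, 1.53 to 4.53). Calcrl, the receptor for CGRP and adrenomedullin, had 44 and 11 UMIs (2.91, 1.48 to 6.26).

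Some genes with high ratios in the mature cells were also higher in C1q macrophages of the Sitagliptin library. Zbed5 had 46 UMIs in 27 Sitagliptin cells and none in Control cells, a ratio of 11.2 against a floor of 3 counts set for the Control cells. In C1q macrophages it had 3460 UMIs in the Sitagliptin library and 16 in the Control library, a ratio of 145 (89.4 to 255). Ndufb1-ps, Ndufa1 and Atp5k, named for respiratory chain and ATP synthase subunits, had ratios of 2.81 (1.70 to 4.85), 2.13 (1.37 to 3.40) and 2.04 (1.21 to 3.59) in the mature cells. In macrophages these were 1.87 (1.77 to 1.96), 1.14 (1.09 to 1.18) and 1.95 (1.84 to 2.06). Cdk8 had 1291 and 679 CPM (1.90, 1.59 to 2.28) in the mature cells and a ratio of 2.09 (2.06 to 2.13) in macrophages. These genes were chosen for display with earlier results of these libraries known. The oxidative phosphorylation list as a whole had 11 of 31 genes higher and a median log2 ratio of −0.06. Glycolysis and hypoxia genes had 12 of 17 lower over all cells (median −0.38) but 8 of 17 over the 120 cells (median 0.06).

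Dpp4 itself, the target of sitagliptin, was present in the mature cells. It had 54 UMIs in 28 of 66 Sitagliptin cells and 33 UMIs in 20 of 57 Control cells, 154 and 129 CPM. The ratio was 1.19 (0.759 to 1.90), and 1.02 (0.650 to 1.62) over the 120 cells and 0.707 with the rule on thinned UMIs, so no difference was detectable at this depth. Its thinned share was 24.8% in Sitagliptin and 24.0% in Control cells, against 0.659% and 0.815% in C1q macrophages. In cDC2-like barcodes Dpp4 had 92.8 and 82.8 CPM, and in cDC1-like barcodes 260.7 and 336 CPM. The list of the DPP4 family, its chemokine substrates and their receptors had 9 of 12 genes higher in both sets. Of all genes 45.9% were higher over all cells and 43.4% over the 120 cells. The list had medians of 0.58 over all cells and 0.35 over the 120 cells, against −0.04 and −0.06 over all genes. It shares 6 of those 9 higher genes, Ccl4, Ccl5, Ccl17, Ccl22, Cxcl9 and Cxcl10, with the chemokine list.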

How the data were processed

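Values are raw UMI counts as the authors deposited them, over 32285 genes in 2 libraries; rows with a shared symbol were summed here. Per the labels' protocols, CD45+ cells were enriched by MACS and libraries made with the SeekOne DD 5′ kit. Neither a label nor a header names an aligner, and the counting annotation is unknown here. The lowest barcode total was 2001 UMIs, so cells with little RNA can be missing. No per-sample columns were left unused. Values of a few genes are not reported here.

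Groups follow the treatment label. Members, gene lists and comparisons were chosen with earlier results of these data known. UMIs were summed over members per library and scaled to CPM. Ratios have exact conditional binomial 95% intervals, shares Clopper-Pearson, and share ratios Katz intervals, all for counting error only. PCR and droplet effects are outside them. Shares of cells with a UMI were also computed for cells thinned to 2000 UMIs. A gene at 0 was set to a floor of 3 counts over the group. A gene entered a list median from 20 UMIs in all, and a count over all genes from 50. Against other barcodes it entered from 50 UMIs over both libraries in either set.

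Named genes were those of the rule and lists, the 12 highest and 12 lowest diet ratios with at least 50 UMIs, at least 50 CPM in the higher library, an interval without 1 and a thinned share moving the same way, the 15 highest and lowest against cDC2-like barcodes, and the 10 most like the rule genes. Rankings left out sex-linked marker genes, unnamed gene models, and genes of haemoglobin, ribosomes, mitochondria and antigen receptors. Promoters were matched by symbol, 5 of 6 rule genes and 13 of 20 other maturation genes. Doublets were not removed beyond the rule; Scrublet's threshold marked 0% in both libraries, and the top 6% by score were left out as an alternative. With 1 library per diet no p-value was computed. The interval code was tested on simulated data. Python 3.11.15, numpy 2.4.6, scipy 1.17.1, pandas 2.3.3 and scanpy 1.11.5 were used.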

Additional observations from a re-analysis of the deposited data

Results flagged for a closer look

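In 2 genes the diets differed in opposite directions in mature dendritic cells and in C1q macrophages, by counting intervals that lie on opposite sides of 1. The difference between the cell types was not tested, since each diet has 1 library. Wfdc17 had a Sitagliptin over Control ratio of 6.55 (2.85 to 18.5) over the 120 mature cells and 0.826 (0.805 to 0.847) in macrophages, and 25 of its 63 UMIs in Sitagliptin mature cells lay in 1 cell. Eif5, a translation initiation factor, had 0.510 (0.319 to 0.811) in the mature cells and 1.06 (1.02 to 1.10) in macrophages.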

How the results depend on the processing

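No paired analysis was possible because each diet has 1 library, and for the same reason no replicate could be left out. The share ratio of 1.03 kept its value within its interval under every alternative, with 57 and 49 cells at a sum of at least 8, 74 and 63 at a sum of at least 3, 60 and 55 at a macrophage sum of at most 2, 60 and 53 with the rule on thinned UMIs, 65 and 56 without the top Scrublet scores and 64 and 55 without cells holding other types' markers. The count of genes 1.5-fold higher in Sitagliptin cells moved to 83 at a sum of at least 8, 466 with genes of at least 20 UMIs and 1534 with no filter. The count of genes lower moved to 111, 685 and 2290 under the same settings, to 308 at a sum of at least 3 and to 110 without the 3 high-UMI barcodes, a setting chosen after seeing the data. Those barcodes hold Il1rl1, H1f0 and Cald1, as above; they were not among the top Scrublet scores. The cell cycle median turned to 0.0605 at a sum of at least 8, 0.23 at a macrophage sum of at most 2, 0.29 with the thinned rule and 0.0693 without other types' markers, and the NF-kB median to −0.0639 with the thinned rule. The cause was not tested. Single genes turned in 13 cases. With a sum of at least 8, H1f0 was 1.01 and Hist1h1b 1.01. With the lower macrophage limit Cald1 was 15.3, Tm4sf1 7.31, Hist1h1b 1.16, Top2a 1.11, Il1rn 0.933 and Cybb 0.664. That limit left out both high-UMI Control barcodes, with macrophage sums of 4 and 5. It kept the Sitagliptin one, with a sum of 2, which held 21 UMIs of Cald1, 10 of Tm4sf1 and 15 of Top2a. Ratios and the cell cycle median at this limit therefore compare libraries with and without such a barcode. With the thinned rule Cybb was 0.673, H1f0 1.15, Il1rn 0.874 and Top2a 1.45, and without other types' markers Hist1h1b was 1.30. Scaling by the median of ratios moved all log2 ratios by 0.04. Depth limits single genes: at 50 UMIs in all, intervals span several-fold.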
